A study of Mus musculus with 8 samples.

Results

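The cyclins and cyclin-dependent kinases (CDKs) described here were 10 genes taken by symbol from the 56748 genes of the count table. They were the D-type cyclins Ccnd1, Ccnd2 and Ccnd3 of G1 and the E-type cyclins Ccne1 and Ccne2 of the G1/S step. With them came the A- and B-type cyclins Ccna2, Ccnb1 and Ccnb2 of S phase and G2/M, and the kinases Cdk1 and Cdk2. They were measured by RNA sequencing in 8 libraries of Ly6Chigh monocytes, which are the classical, inflammatory type, obtained from mouse spleen by flow sorting. The libraries were 4 from Olfr2 knockout (KO) mice and 4 from Olfr2 wild-type (WT) mice, all at day 7 after an aneurysm had been induced, so that no uninjured or earlier animals stand beside them. The labels give neither how the Olfr2 allele was disrupted nor the strain, age or sex of the animals. Whether 1 library stands for 1 animal is not stated, so that a p-value here refers only to the spread between libraries, which may be technical. Libraries are called KO 1 to KO 4 and WT 1 to WT 4 after the numbers in their titles. The question for these genes was whether the cyclins of successive cell cycle phases differed alike between KO and WT monocytes.

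A cyclin is the regulatory subunit that switches on a CDK, and it is made and destroyed in turn as the cell cycle proceeds. D-type cyclins with Cdk4 or Cdk6 carry growth factor signals into G1 and are found in cells that do not divide too. E-type cyclins with Cdk2 start DNA replication, Ccna2 acts with Cdk2 in S phase and with Cdk1 in G2, and B-type cyclins with Cdk1 drive entry into mitosis. Genes of the E type are transcribed under E2F factors in late G1. Genes of the A and B types and Cdk1 follow later, through CCAAT boxes bound by NF-Y and the cell cycle genes homology region (CHR) bound by the DREAM and MMB complexes. Monocytes leave the bone marrow as largely non-dividing cells, while their marrow precursors divide.

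Promoter sequence is shown for Ccnb1, Ccnb2 and Cdk1, which shared nearly the same order of libraries, and, for contrast, for Ccne1, Cdk2 and Ccnd3. RefSeq windows of 300 bases on GRCm38.p6, from 250 bases before to 50 after the RefSeq start, were matched for 6 of the 10 members, and Ccna2, Ccne2, Ccnd1 and Ccnd2 are named only. Each line holds 150 bases read 5′ to 3′ on the gene's own strand. Except for Ccnd3, whose line belongs to an internal RefSeq start within the gene, the stretch ends before the most upstream annotated start. Capitals mark a CCAAT box (CCAAT), an E2F motif (TTCCCGC, its variant TTCGCGC, the variant TTGCCGC or the variant TTGGCGC) or a CHR (TTTGAA or its variant TTCGAA), each searched on both strands. The stretches lie at chr13:100786571-100786720 (minus strand) for Ccnb1, chr9:70421555-70421704 (minus) for Ccnb2, chr10:69352939-69353088 (minus) for Cdk1, chr7:38107535-38107684 (minus) for Ccne1, chr10:128705052-128705201 (minus) for Cdk2 and chr17:47593286-47593435 (plus, the second of 2 RefSeq starts) for Ccnd3.
Ccnb1: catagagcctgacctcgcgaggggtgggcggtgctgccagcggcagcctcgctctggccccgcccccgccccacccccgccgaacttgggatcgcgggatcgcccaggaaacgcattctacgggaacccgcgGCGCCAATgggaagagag
Ccnb2: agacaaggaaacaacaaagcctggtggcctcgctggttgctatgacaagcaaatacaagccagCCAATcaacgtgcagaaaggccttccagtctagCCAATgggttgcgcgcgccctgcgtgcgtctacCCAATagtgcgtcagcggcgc
Cdk1: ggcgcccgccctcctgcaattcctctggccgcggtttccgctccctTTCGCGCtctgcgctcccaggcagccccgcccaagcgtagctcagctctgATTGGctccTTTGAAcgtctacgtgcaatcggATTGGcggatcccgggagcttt
Ccne1: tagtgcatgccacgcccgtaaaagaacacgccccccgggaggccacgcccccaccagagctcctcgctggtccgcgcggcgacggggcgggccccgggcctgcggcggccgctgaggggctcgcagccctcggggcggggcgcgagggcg
Cdk2: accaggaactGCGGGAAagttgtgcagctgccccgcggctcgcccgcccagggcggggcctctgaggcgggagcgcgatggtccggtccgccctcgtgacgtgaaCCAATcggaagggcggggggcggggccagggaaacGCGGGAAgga
Ccnd3: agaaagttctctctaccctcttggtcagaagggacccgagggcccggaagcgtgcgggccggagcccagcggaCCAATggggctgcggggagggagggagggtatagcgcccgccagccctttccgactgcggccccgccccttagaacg

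Counted from the RefSeq start, the whole Ccnb2 window held CCAAT at positions -87, -54 and -21 and TTTGAA at -167 and 5. In Cdk1, CCAAT stood on the opposite strand at -208, -80 and -48, TTTGAA at -71 and -15, and E2F motifs at -178 and -130. Ccnb1 held CCAAT at -99 and -67, with an E2F motif at -102 that overlaps the first of them. Cdk2 held CCAAT at -45 and E2F motifs at -140, -10 and 41, Ccnd3 held CCAAT at -108 in 1 of its 2 windows, and none of these letters stood in the Ccne1 window. Over all 32851 windows of the same length, 37.4% held CCAAT, 19.2% a CHR, 9.57% an E2F motif and 7.52% both CCAAT and a CHR, as the Ccnb2 and Cdk1 windows did. A match to these letters is a description and not a bound site.

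Total counts lay between 17258427 and 21728794 in the KO libraries and between 16111725 and 19048245 in the WT libraries, and 11222 genes passed the filter on low counts, with 99.9% of all counts. Levels are given in CPM, that is, counts scaled to the TMM-corrected library size, and at a count of 0 the level could still be as high as 0.139 to 0.186 CPM, for counting error only. The sort was checked by markers: all 10 monocyte markers, among them Ccr2 and Csf1r, had counts in every library, and Ly6c2 had 4727 to 6378 CPM in KO and 4058 to 4889 CPM in WT. Their sum, 116650 to 134641 CPM in KO and 104676 to 121506 CPM in WT, was mostly Lyz2, which neutrophils express too. Olfr2 had 0 counts in 8 of 8 libraries, so that it could not check the genotype labels. The median log2 difference of all tested genes was -0.00.

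**Figure D1:**
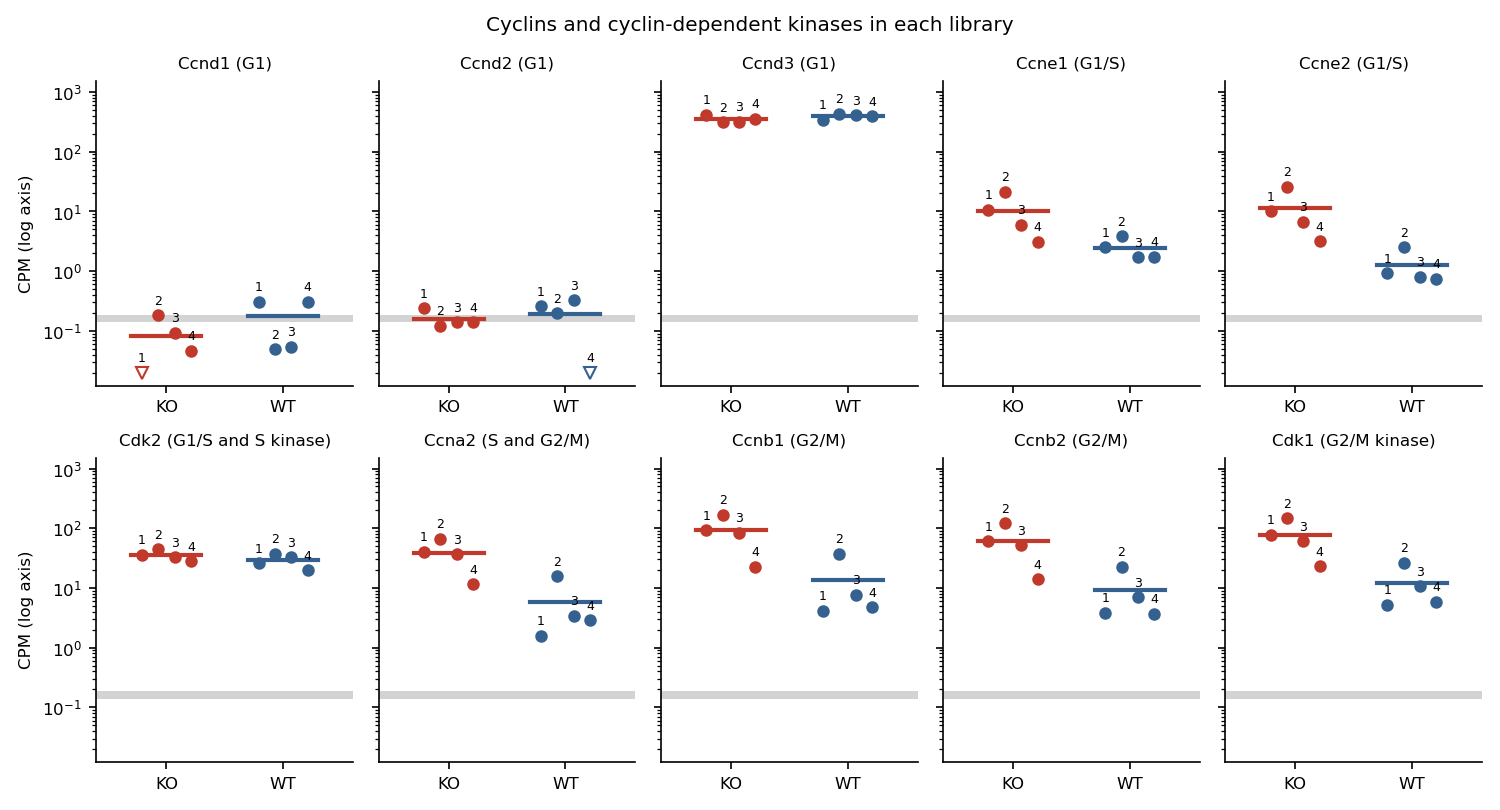
Level of each cyclin and CDK in each library, in CPM on a log axis, with KO in red on the left, WT in blue on the right and the number of the library above its point; horizontal lines are group means, the grey band is the range of levels that a count of 0 allows, and open triangles are libraries with 0 counts. Ccnd3 and Cdk2 sit at like levels in both groups, Ccne2 alone has every KO library above every WT library, and in Ccna2, Ccnb1, Ccnb2 and Cdk1 the library WT 2 lies above KO 4.

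Of the G1 cyclins, Ccnd3 carried nearly all the signal, and its level was much the same in KO and WT monocytes. Ccnd3 (ENSMUSG00000034165; GRCm38 chromosome 17, 47505051 to 47599691, plus strand), the D-type cyclin with a known part in lymphocyte and myeloid cells, had 417, 314, 321 and 357 CPM in KO 1 to 4, against 346, 433, 409 and 391 CPM in WT 1 to 4. The highest library was WT 2 and the lowest KO 2, and the groups overlapped. Its log2 difference, KO minus WT, was -0.17 ± 0.12 (SE) with a 95% interval of -0.43 to 0.10 (edgeR adjusted p = 0.466). With offsets for transcript length and GC content the sign turned, at 0.08 ± 0.11. Ccnd3 shares 361 exon bases with Bysl on the opposite strand, whose own log2 difference was -0.03 ± 0.14.

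Ccnd1 and Ccnd2, the other D-type cyclins, were at the edge of detection and did not pass the filter. Ccnd1 (ENSMUSG00000070348; chromosome 7, 144929931 to 144939925, minus strand) had 0, 3, 2 and 1 counts in KO 1 to 4, against 6, 1, 1 and 5 counts in WT 1 to 4. For Ccnd2 (ENSMUSG00000000184; chromosome 6, 127125162 to 127152193, minus strand) the counts were 4, 2, 3 and 3 in KO 1 to 4, against 5, 4, 6 and 0 in WT 1 to 4. Levels that low lie near what a count of 0 allows, and the groups overlapped for both genes. On log2(CPM + 0.1) an exact two-sided permutation test over 70 assignments gave p = 0.257 for Ccnd1 and p = 1 for Ccnd2, where the smallest possible p is 0.0286 (n = 4 each). A difference was not detectable at this depth. Ccnd1 shares 1100 exon bases with LTO1 on the opposite strand, and Ccnd2 shares 368 with 9330179D12Rik and 372 with Gm43126. The strand setting is not given in the sources used here, so that such reads cannot be told apart.

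The E-type cyclins were scarce in WT and had several times that mean level in KO, where the libraries were far apart. Ccne2 (ENSMUSG00000028212; chromosome 4, 11191351 to 11204779, plus strand) had 10.1, 26.0, 6.73 and 3.204 CPM in KO 1 to 4, against 0.925, 2.50, 0.811 and 0.745 CPM in WT 1 to 4. It was the 1 member of the 8 tested whose groups did not overlap, where 11.4% of all tested genes had groups apart and 5.35% had every KO library above every WT library. The counts behind these levels were 169, 422, 144 and 69 in KO 1 to 4, against 18, 51, 15 and 12 in WT 1 to 4. Its means were 11.5 ± 10.04 CPM in KO and 1.25 ± 0.842 CPM in WT (SD, n = 4 each). The log2 difference was 3.17 ± 0.75 (SE; 95% interval 1.42 to 4.92; edgeR adjusted p = 0.0851).

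Ccne1 (ENSMUSG00000002068; chromosome 7, 38097984 to 38107534, minus strand), the other activator of Cdk2 at the G1/S step, had 10.7, 21.4, 6.03 and 3.11 CPM in KO 1 to 4, against 2.52, 3.88, 1.73 and 1.74 CPM in WT 1 to 4. KO 4 lay below WT 2, so that the groups overlapped by a single library on each side. The means were 10.3 ± 8.03 CPM in KO and 2.47 ± 1.01 CPM in WT (SD, n = 4 each). The log2 difference was 2.04 ± 0.59 (SE; 95% interval 0.68 to 3.40; edgeR adjusted p = 0.115). Ccne2 shares 609 exon bases with Ints8, a gene of the Integrator complex on the opposite strand. Ints8 had 22.6, 25.4, 23.3 and 23.8 CPM in KO 1 to 4, against 19.5, 16.1, 10.1 and 13.8 CPM in WT 1 to 4. Its log2 difference was 0.68 ± 0.18 (SE). How far Ints8 reads enter the Ccne2 counts was not tested.

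Cdk2 (ENSMUSG00000025358; chromosome 10, 128697939 to 128705031, minus strand), the kinase that the E-type cyclins activate, differed little next to its cyclins. It had 36.2, 44.1, 32.8 and 28.2 CPM in KO 1 to 4, against 26.1, 37.6, 32.7 and 20.04 CPM in WT 1 to 4. The groups overlapped, with WT 2 above KO 1, KO 3 and KO 4. The log2 difference was 0.28 ± 0.20 (SE) with a 95% interval of -0.15 to 0.70 (edgeR adjusted p = 0.439).

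The A- and B-type cyclins and Cdk1 showed 1 shared profile over the 8 libraries, with KO means more than 6 times the WT means and with WT 2 above KO 4 in each. Ccna2 (ENSMUSG00000027715; chromosome 3, 36564865 to 36572150, minus strand), the cyclin of S phase and G2, had 40.4, 66.3, 37.0 and 11.5 CPM in KO 1 to 4, against 1.59, 15.6, 3.40 and 2.85 CPM in WT 1 to 4. Its means were 38.8 ± 22.4 CPM in KO and 5.87 ± 6.54 CPM in WT (SD, n = 4 each). The log2 difference was 2.71 ± 0.87 (SE; 95% interval 0.62 to 4.80; edgeR adjusted p = 0.159). Ccna2 shares 510 exon bases with Exosc9, a gene of the RNA exosome, whose log2 difference was 0.38 ± 0.12. With the length and GC offsets that of Exosc9 was 0.10 ± 0.11.

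Ccnb1 (ENSMUSG00000041431; chromosome 13, 100778650 to 100786570, minus strand), the cyclin that drives Cdk1 at mitotic entry, had 93.4, 169.5, 84.1 and 22.8 CPM in KO 1 to 4, against 4.16, 37.4, 7.73 and 4.78 CPM in WT 1 to 4. The log2 difference was 2.77 ± 0.96 (SE; 95% interval 0.45 to 5.08; edgeR adjusted p = 0.180), the widest interval of the members. Within KO the highest library had 7.43 times the lowest, and within WT 8.98 times. Ccnb2 (ENSMUSG00000032218; chromosome 9, 70407692 to 70421547, minus strand), the second mitotic B-type cyclin, had 61.3, 120.7, 51.4 and 14.1 CPM in KO 1 to 4, against 3.85, 22.6, 7.08 and 3.72 CPM in WT 1 to 4. Its log2 difference was 2.72 ± 0.87 (SE; 95% interval 0.63 to 4.81; edgeR adjusted p = 0.158). The pseudogene Ccnb1-ps had 0.23 to 1.78 CPM in KO and 0.41 to 0.54 CPM in WT, and Ccnb2-ps at most 0.43 CPM in any library.

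Cdk1 (ENSMUSG00000019942; chromosome 10, 69335146 to 69352938, minus strand), the mitotic kinase itself, had 78.0, 148.7, 60.9 and 23.2 CPM in KO 1 to 4, against 5.24, 26.4, 10.6 and 5.90 CPM in WT 1 to 4. KO 2 was the highest library and WT 1 the lowest. Its means were 77.7 ± 52.6 CPM in KO and 12.0 ± 9.85 CPM in WT (SD, n = 4 each). The log2 difference was 2.68 ± 0.77 (SE; 95% interval 0.84 to 4.52; edgeR adjusted p = 0.129). In these bulk libraries, a larger share of cells with these transcripts and more transcript per cell cannot be told apart.

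With an adjusted p of 0.05 over all 11222 genes (edgeR quasi-likelihood test, Benjamini-Hochberg), 0 of the 8 tested members passed, where 1.06% of all tested genes did. At an unadjusted p under 0.05 there were 6 members (Ccne1, Ccne2, Ccna2, Ccnb1, Ccnb2 and Cdk1), all higher in KO, against 20.9% of all tested genes in either direction and 8.93% in that direction. DESeq2 called these same 6 members, with adjusted p-values between 0.00133 for Ccne2 and 0.0332 for Ccnb1, where it called 6.99% of all tested genes. By limma-voom 0 members and 0 genes (0.0% of all tested) passed, with 2371 genes at an unadjusted p under 0.05, and the 6 members had adjusted p-values between 0.0872 and 0.137. Ccnd3 and Cdk2 passed with neither tool.

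Single libraries moved these values. Without WT 2, the WT library highest in all 6 of those members, Ccna2 was 3.89 ± 0.66 higher on the log2 scale in KO (SE; edgeR adjusted p = 0.0256) and Ccnb1 4.05 ± 0.75 (adjusted p = 0.0412). These 2 members passed, where 4.3% of all tested genes did. Without KO 4, the KO library lowest in all 6, Ccne1 and Ccne2 passed (edgeR adjusted p = 0.0294 for each), beside 1.86% of all tested genes. WT 2 and KO 4 are the libraries nearest the other genotype in these 6 members, so that leaving either out widens the difference by construction. With any other single library left out, 0 members passed. Leaving out KO 2, the highest KO library, the log2 differences of the 6 lay between 1.40 for Ccne1 and 2.39 for Ccne2, with edgeR adjusted p-values between 0.0896 and 0.364.

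**Figure D2:**
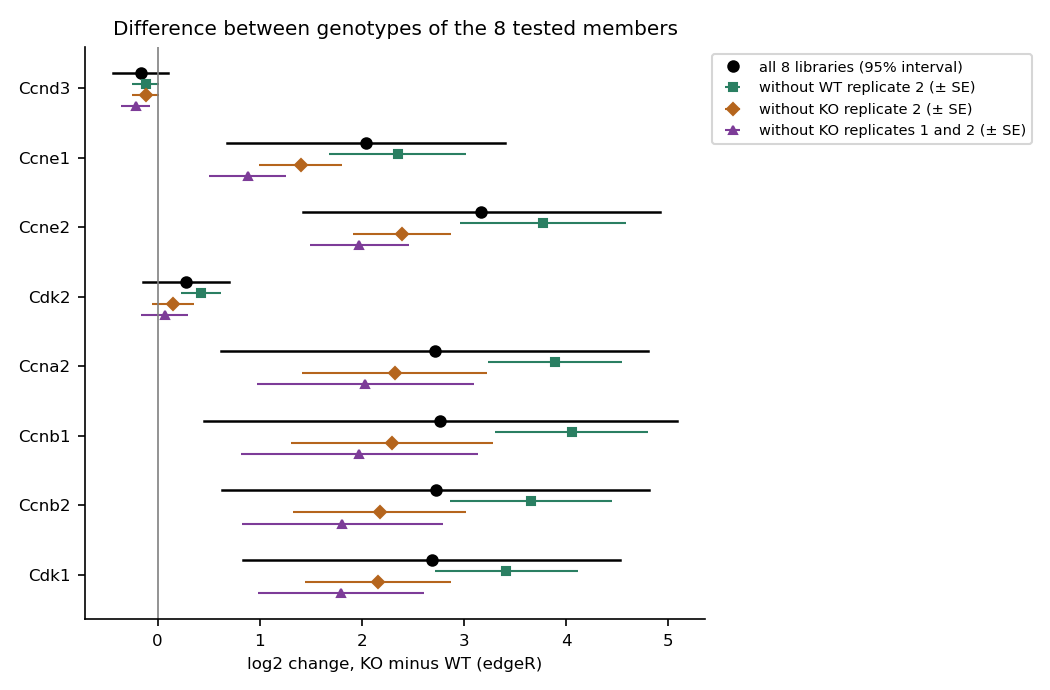
Log2 difference, KO minus WT, of the 8 tested members by edgeR, with all 8 libraries (black, 95% interval) and without WT 2, without KO 2, or without both KO 1 and KO 2 (coloured, ± SE). Ccnd3 and Cdk2 lie near 0 in each, and the other 6 members lie above 0 in each, at 0.88 for Ccne1 without KO 1 and KO 2 up to 4.05 for Ccnb1 without WT 2.

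By the numbers in their column names, libraries 1 and 2 of both genotypes belong to a 1600 series and libraries 3 and 4 to a 1700 series. What these series stand for is not given in the labels. Within each series both KO libraries lay above both WT libraries for all 6 members. The share of all tested genes with that order was not counted, so that this is a description only. In the 1600 series the log2 difference was 2.31 ± 0.37 for Ccne1 (SE; edgeR adjusted p = 0.0459, where 0.802% of all tested genes passed), 3.37 ± 0.64 for Ccne2, and 2.61 ± 1.25 to 2.82 ± 1.03 for Ccna2, Ccnb1, Ccnb2 and Cdk1. Within the 1700 series it was 1.39 ± 0.39 for Ccne1, 2.66 ± 0.45 for Ccne2 (edgeR adjusted p = 0.0444, where 1.22% of all tested genes passed) and 2.34 ± 0.55 to 3.09 ± 0.74 for the other 4. With the series as a covariate Ccne1 and Ccne2 passed (edgeR adjusted p = 0.0233 and 0.0192), beside 2.24% of all tested genes. A difference between the series in the genotype effect was not called for any of the 8 tested members by the edgeR interaction term, with adjusted p-values between 0.489 and 0.974 and 0 members at an unadjusted p under 0.05. It was called for 0.784% of all tested genes, and no other tool was run for it.

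Markers of another cell type moved with part of this profile. The 14 neutrophil and granule genes, 8 of them with counts in every library, summed to 2516, 3908, 804 and 609 CPM in KO 1 to 4, against 629, 418, 299 and 574 CPM in WT 1 to 4. KO 2 and KO 1 were the highest libraries in this sum and in the late cyclins. The list was not uniform: S100a9, which encodes a subunit of calprotectin, stood at 479, 789, 31.6 and 20.3 CPM in KO 1 to 4, against 9.97, 16.2, 7.30 and 8.32 CPM in WT 1 to 4. Elane, the neutrophil elastase gene of granulocyte and monocyte precursors, had 56.8, 93.2, 11.1 and 3.25 CPM in KO 1 to 4, against 4.01, 7.71, 2.59 and 2.48 CPM in WT 1 to 4. In both genes WT 2 was the highest WT library, as in the late cyclins, but this held for no other gene of the list. S100a8 had 796, 1584, 73.9 and 39.6 CPM in KO 1 to 4, against 28.0, 34.8, 24.3 and 48.6 CPM in WT 1 to 4. Among the WT libraries the sum of the list was highest in WT 1. Unlike the late cyclins, Ngp stood higher in KO 1 than in KO 2, at 108, 86.8, 0.19 and 0.05 CPM in KO 1 to 4. Camp did so too, at 64.5, 42.6, 0.09 and 0 CPM. Ltf, Ly6g, Retnlg and Cxcr2 were also higher in KO 1 than in KO 2, with 0.28 CPM or less in KO 3 and KO 4. Prtn3, another granule protease gene, had 81.7, 117.5, 18.0 and 13.7 CPM in KO 1 to 4, against 34.3, 19.1, 20.2 and 33.0 CPM in WT 1 to 4, with KO 3 and KO 4 below every WT library. Mmp8 made up most of the sum in KO 3, KO 4 and the WT libraries, at 704, 820, 638 and 515 CPM in KO 1 to 4 and 524, 327, 230 and 432 CPM in WT 1 to 4. Without KO 1 and KO 2 the log2 differences were 0.88 ± 0.38 for Ccne1, 1.97 ± 0.48 for Ccne2, 2.03 ± 1.06 for Ccna2, 1.97 ± 1.16 for Ccnb1, 1.81 ± 0.98 for Ccnb2 and 1.80 ± 0.81 for Cdk1 (SE), with edgeR adjusted p-values between 0.119 and 0.481.

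Further marker lists were read in the same way. The 7 progenitor genes, among them Kit, Cd34 and Flt3, of which 3 had counts in every library, summed to 18.8 to 22.5 CPM in KO and 15.9 to 20.7 CPM in WT, with Gata2 at 0 in all libraries. The 6 B cell genes (1 of them in every library) summed to 17.2 to 33.7 CPM in KO and 16.3 to 35.6 CPM in WT, with Pax5 and Ebf1 at 0 in all libraries. The 8 T and NK cell genes (5 in every library) summed to 3.05, 4.49, 2.80 and 2.79 CPM in KO 1 to 4, against 1.13, 1.82, 2.49 and 1.74 CPM in WT 1 to 4, with Ncr1 at 0. In this sum each KO library lay above each WT library, with KO 2 and KO 1 highest as in the late cyclins. Of its genes only Nkg7 had groups apart, at 1.68, 2.83, 1.07 and 1.11 CPM in KO 1 to 4, against 0.36 to 0.50 CPM in WT. Over all tested genes 11.4% had groups apart in either direction. The other genes of the list with counts overlapped between the groups, at 0.973 CPM or less in every library. The 8 dendritic cell genes (4 in every library) summed to 818, 494, 1745 and 1997 CPM in KO 1 to 4, against 2267, 2532, 2562 and 2045 CPM in WT 1 to 4, with Siglech at 0. In this sum each KO library lay below each WT library, and within KO the order ran opposite to that of the late cyclins. H2-Ab1 made up most of the sum in every library. Only H2-Ab1 and Bst2 had every KO library below every WT library. Cd209a had 69.9, 51.2, 460 and 423 CPM in KO 1 to 4, against 159, 382, 285 and 172 CPM in WT 1 to 4. Its KO 3 and KO 4 thus lay above every WT library. The 6 erythroid genes (4 in every library) summed to 5.94 to 26.5 CPM in KO and 4.11 to 10.9 CPM in WT. The part of any of these cells in the cyclin values was not tested.

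The order of the libraries was nearly the same for every late member. Ccna2, Ccnb1 and Cdk1 all ran KO 2, KO 1, KO 3, WT 2, KO 4, WT 3, WT 4 and WT 1 from high to low, and Ccnb2 differed only in WT 1 standing above WT 4. Across the 8 libraries, as a description, Pearson's r of log2 CPM was 0.996 for Ccna2 with Ccnb1, 0.997 for Ccnb2 with Cdk1 and 0.976 for Ccne1 with Ccne2. After each genotype's mean was taken off, the same pairs had r of 0.989, 0.995 and 0.976, so that the likeness was there within the genotypes too. Cdk2 with Cdk1 had r = 0.821, and Ccnd3 with the other 7 tested members lay between -0.441 and -0.106. Within the genotypes Cdk2 with Cdk1 had r = 0.883, and Ccnd3 with the other 7 lay between -0.054 and 0.284, where 5 of the 7 were positive. All pairs share their libraries and depth.

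**Figure D3:**
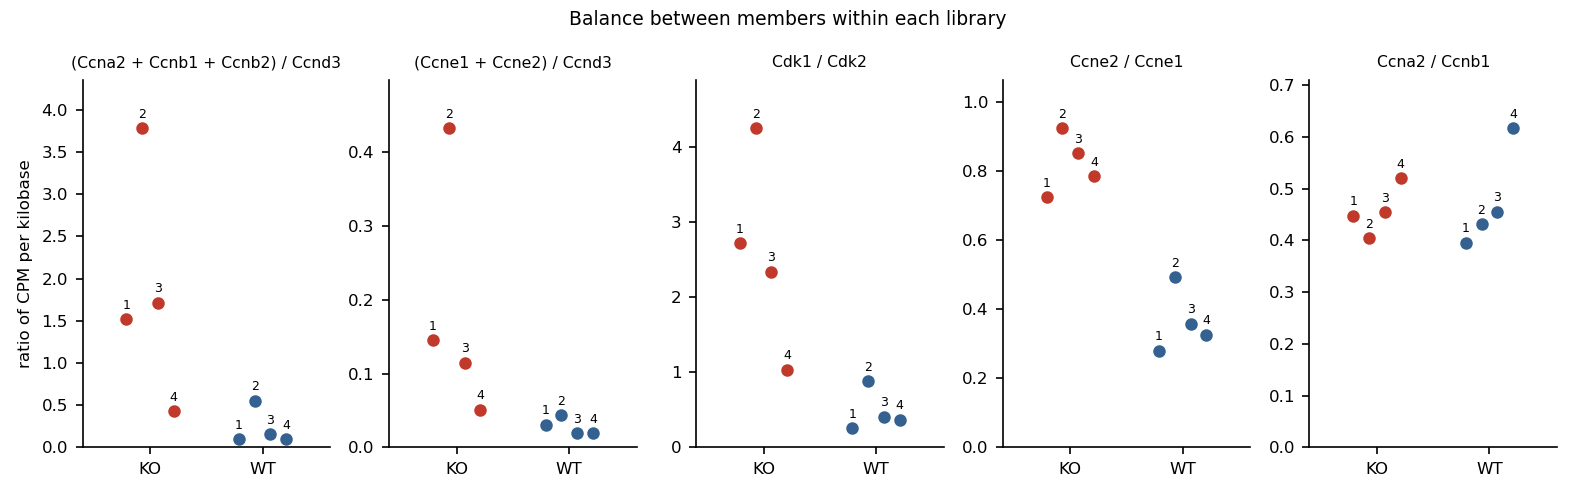
Ratios between members within each library, each formed from CPM per kilobase of exon, with KO in red on the left, WT in blue on the right and the number of the library above its point. Ccne2 over Ccne1 is 0.723 to 0.924 in KO and 0.280 to 0.492 in WT, whereas Ccna2 over Ccnb1 is 0.404 to 0.520 in KO and 0.395 to 0.617 in WT.

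Balances between phases were read as ratios of CPM per kilobase of exon, which allow levels of different genes to be set against each other. The S and G2/M cyclins (Ccna2, Ccnb1 and Ccnb2 summed) stood at 1.52, 3.78, 1.71 and 0.428 times Ccnd3 in KO 1 to 4, against 0.0986, 0.556, 0.156 and 0.0956 times in WT 1 to 4. The groups overlapped through KO 4 and WT 2. The E-type cyclins summed stood at 0.145, 0.433, 0.115 and 0.0512 times Ccnd3 in KO 1 to 4, against 0.0307, 0.0440, 0.0189 and 0.0194 times in WT 1 to 4, without overlap. Cdk1 over Cdk2 was 2.72, 4.25, 2.34 and 1.03 in KO 1 to 4, against 0.253, 0.882, 0.410 and 0.371 in WT 1 to 4, without overlap. The sizes of these ratios depend on the length used. By the mean length of annotated transcripts the S and G2/M cyclins stood at 0.103 to 0.866 times Ccnd3 in KO and 0.0212 to 0.133 times in WT, below Ccnd3 in every library. The E-type cyclins then stood at 0.0187 to 0.156 times Ccnd3 in KO and 0.00725 to 0.0166 times in WT, and Cdk1 over Cdk2 was 1.52 to 6.23 in KO and 0.370 to 1.29 in WT, with WT 2 above 1. Which of these ratios overlapped between the genotypes was the same by either length. The ratios here and below are given with no test, and how often ratios of other genes overlap was not counted.

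Within a phase the members kept closer proportions, with 1 exception. Ccna2 over Ccnb1 and Ccnb1 over Ccnb2 overlapped between the genotypes, the second at 0.510 to 0.594 in KO and 0.392 to 0.601 in WT. Ccne2 over Ccne1 did not: it was 0.723, 0.924, 0.850 and 0.784 in KO 1 to 4, against 0.280, 0.492, 0.357 and 0.326 in WT 1 to 4. E-type over A- and B-type cyclins was 0.0957, 0.114, 0.0669 and 0.120 in KO 1 to 4, against 0.311, 0.0792, 0.121 and 0.203 in WT 1 to 4. In WT this last ratio was lowest in WT 2, the WT library with the most A- and B-type cyclin.

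Per kilobase of exon the mean levels in KO ran from Ccnb2 (40.4 CPM per kb) and Ccnd3 (40.1) through Ccnb1 (21.9), Cdk1 (15.7), Ccna2 (9.51), Cdk2 (5.68), Ccne1 (3.87) and Ccne2 (3.29) to Ccnd1 and Ccnd2 (0.02 each). In WT, Ccnd3 (45.0 CPM per kb) led, followed by Ccnb2 (6.08), Cdk2 (4.69), Ccnb1 (3.20), Cdk1 (2.44), Ccna2 (1.44), Ccne1 (0.93), Ccne2 (0.36), Ccnd1 (0.04) and Ccnd2 (0.02). Of neighbours in these orders, by exon length, the ranges over libraries were apart only between Ccne2 and Ccnd1 in both genotypes and between Ccnd3 and Ccnb2 in WT. The order of Ccnb2 and Ccnd3 in KO depends on the length used: by the mean length of annotated transcripts Ccnd3 stood at 298 CPM per kb in KO and 335 in WT, and Ccnb2 at 40.4 in KO and 6.08 in WT.

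Among all 11221 other tested genes ranked by Pearson's r of log2 CPM with Cdk1 over the 8 libraries, Ccnb2 came at rank 2, Ccnb1 at 7, Ccna2 at 18, Ccne2 at 45, Ccne1 at 134, Cdk2 at 414 and Ccnd3 at 7596. The 5 non-members most like Cdk1 were Birc5, which encodes survivin (r = 0.997), Rrm2, a subunit of ribonucleotide reductase (0.996), the CDK phosphatase gene Cdkn3 (0.996), 2700099C18Rik (0.995) and the histone chaperone gene Asf1b (0.994). Birc5 had 91.5, 188.7, 87.2 and 24.0 CPM in KO 1 to 4, against 6.22, 34.3, 11.8 and 7.45 CPM in WT 1 to 4, with WT 2 above KO 4 as in Cdk1. Most like Ccnd3 were Fem1a (r = 0.973), Rbm15b (0.950), H6pd (0.945), Tssk6 (0.944) and Dvl2 (0.936), with log2 differences between -0.56 and -0.23 and edgeR adjusted p-values between 0.376 and 0.593. With the length and GC offsets 4 of these 5 differences were positive, from 0.0077 for H6pd to 0.26 for Fem1a.

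**Figure D4:**
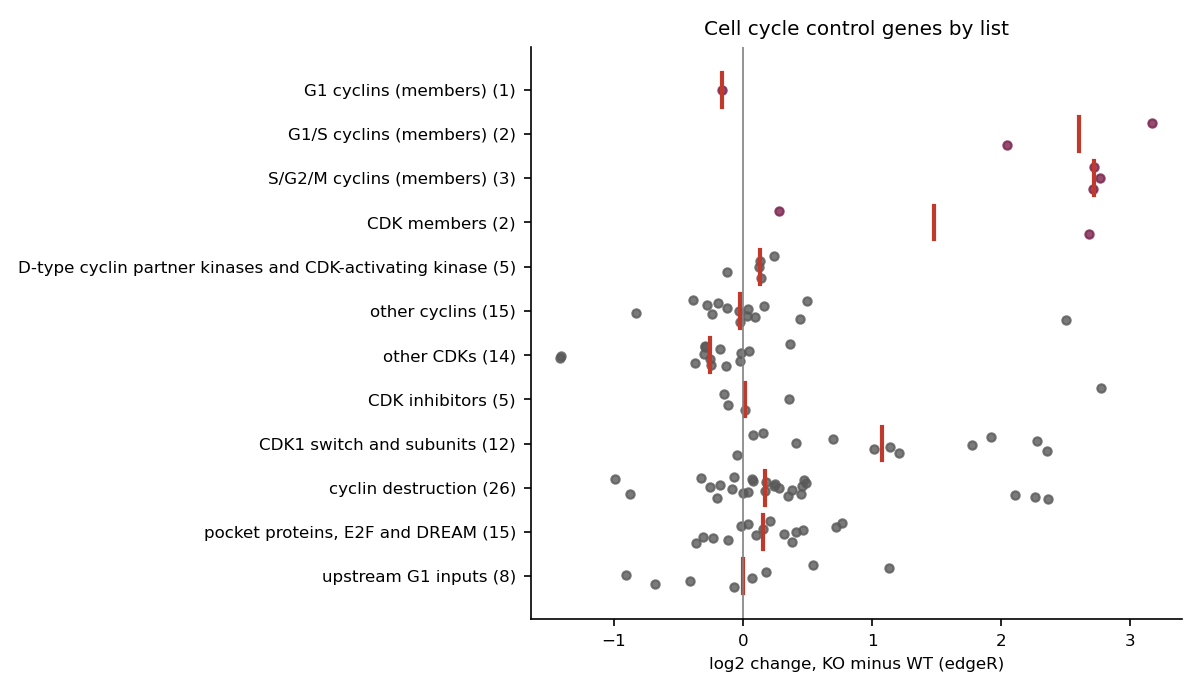
Log2 difference, KO minus WT (edgeR), of each tested gene in the member classes (purple points) and in 8 lists of cell cycle control genes (grey points), with the number tested in brackets and the median as a red bar; points are spread vertically for sight only. The A- and B-type cyclins (median 2.72), the E-type cyclins (2.61) and the CDK1 switch genes (1.07) lie to the right. The CDK members (median 1.48) are apart, with Cdk1 at 2.68 and Cdk2 at 0.28. Most other lists are centred near 0.

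The rest of the cyclin and CDK machinery was read from 8 lists, in which 0 genes passed in either direction (edgeR, adjusted p of 0.05; 1.06% of all tested genes passed). Partners of the D-type cyclins and the CDK-activating kinase had 5 of 5 genes tested and a median log2 difference of 0.13. Cdk4, a kinase partner of the D-type cyclins, averaged 139.8 ± 19.5 CPM in KO and 127 ± 16.3 CPM in WT (SD, n = 4 each; log2 difference 0.14 ± 0.13, SE; edgeR adjusted p = 0.583). Its relative Cdk6 averaged 1.503 ± 0.50 CPM in KO and 1.64 ± 0.69 CPM in WT. Mnat1, Ccnh and Cdk7, the 3 subunits of the CDK-activating kinase, had log2 differences of 0.24, 0.13 and 0.12, each turning negative with the length and GC offsets.

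Genes that switch Cdk1 on and off showed the late profile in part. Of this list 12 of 13 were tested, 11 had a positive difference, the median was 1.07 and 6 had an unadjusted p under 0.05, all higher in KO. Over all tested genes 49.6% had a positive difference, 20.9% had an unadjusted p under 0.05 and 8.93% did so with a higher level in KO. Aurka, the kinase that helps to activate the mitotic kinases, had 31.6, 50.6, 30.0 and 11.8 CPM in KO 1 to 4, against 6.42, 15.1, 5.51 and 5.46 CPM in WT 1 to 4. Its log2 difference was 1.92 ± 0.51 (SE; edgeR adjusted p = 0.104). Cdc25b, a phosphatase that removes the inhibitory phosphate from Cdk1, had 3.83, 5.54, 3.32 and 2.28 CPM in KO 1 to 4, against 2.26, 1.72, 1.30 and 1.12 CPM in WT 1 to 4. Its groups did not overlap, where 5.35% of all tested genes had every KO library above every WT library. The log2 difference of Cdc25b was 1.21 ± 0.31 (SE; edgeR adjusted p = 0.0721). Cks2, a small subunit that binds CDKs, had a log2 difference of 0.41 ± 0.13 (edgeR adjusted p = 0.104), and 0.15 ± 0.11 with the length and GC offsets.

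CDK inhibitors and the machinery that destroys cyclins were mixed. Of 8 inhibitor genes 5 were tested, with a median of 0.02. Cdkn3 had 2.77 ± 0.80 (SE; edgeR adjusted p = 0.130). Against that, Cdkn2c (p18) had 0.35 ± 0.21, Cdkn1b (p27) -0.12 ± 0.23, Cdkn2d (p19) -0.15 ± 0.42 and Cdkn1a (p21) 0.02 ± 0.22. Of 26 tested genes for cyclin destruction, 17 had a positive difference and the median was 0.17, with 9 at an unadjusted p under 0.05, 7 of them higher in KO, beside the same 49.6%, 20.9% and 8.93% over all tested genes. Ambra1, which targets D-type cyclins for degradation, had -0.99 ± 0.32 (SE; edgeR adjusted p = 0.114), the anaphase-promoting complex subunit Cdc23 had 0.49 ± 0.17 (adjusted p = 0.127) and the SCF scaffold Cul1 had 0.47 ± 0.19 (adjusted p = 0.182). The late mitotic members of that list stood apart from its median, with Cdc20 at 2.36 ± 0.87, Ube2c at 2.26 ± 0.87 and Fbxo5 at 2.11 ± 0.77.

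Of the pocket proteins, E2F factors and DREAM subunits, which control transcription of the E-, A- and B-type cyclins, 15 of 20 were tested with a median of 0.16. Tfdp1, the DNA-binding partner of E2F factors, had 0.46 ± 0.15 (SE; edgeR adjusted p = 0.124), and the DREAM and MMB subunits Lin54 and Lin9 had 0.77 ± 0.28 (adjusted p = 0.146) and 0.72 ± 0.27 (adjusted p = 0.161). Of the inputs into G1 and general cycle markers, 8 of 11 were tested with a median of -0.00, 4 positive and 4 negative. Of the cycle markers on this list, Mki67 had 1.13 ± 0.45 (SE, with an edgeR adjusted p of 0.176). Pcna, the sliding clamp of DNA replication, had 163.6, 202.6, 131.5 and 123.0 CPM in KO 1 to 4, against 112.7, 102.7, 111.3 and 99.2 CPM in WT 1 to 4. These groups did not overlap, where 5.35% of all tested genes had every KO library above every WT library. The log2 difference of Pcna was 0.54 ± 0.15 (SE; edgeR adjusted p = 0.0822), and 0.30 ± 0.14 with the length and GC offsets. Csf2ra, the receptor chain for GM-CSF, had -0.68 ± 0.19 (edgeR adjusted p = 0.0792) and Il3ra, that for interleukin-3, had -0.90 ± 0.28 (adjusted p = 0.103).

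Other cyclins, most of them without a part in the cell cycle, had a median of -0.02 over 15 of 21 tested, 7 positive. The exception in size was Ccnf, a cyclin of G2 that serves as an F-box protein, with 7.55, 17.04, 6.35 and 1.35 CPM in KO 1 to 4, against 0.46, 3.78, 0.54 and 0.74 CPM in WT 1 to 4. WT 2 again lay above KO 4, and the log2 difference was 2.50 ± 0.95 (SE; edgeR adjusted p = 0.203). Ccng1, a p53 target, had 72.6, 72.2, 76.3 and 71.5 CPM in KO 1 to 4, against 63.3, 54.4, 40.6 and 57.7 CPM in WT 1 to 4, without overlap. Over all tested genes 5.35% had every KO library above every WT library. The log2 difference of Ccng1 was 0.44 ± 0.14 (SE; edgeR adjusted p = 0.109), and 0.21 ± 0.11 with the length and GC offsets. That of Ccnk, the partner of Cdk12 and Cdk13, was -0.83 ± 0.46. Other CDKs had a median of -0.25 over 14 of 19 tested, 12 of them negative, where 5661 of all 11222 tested genes were negative. The transcriptional kinases Cdk12 and Cdk13 had -1.42 ± 0.39 and -1.41 ± 0.38 (SE; edgeR adjusted p = 0.0791 and 0.0786). With the length and GC offsets they had -1.20 ± 0.37 and -0.89 ± 0.33. Their levels were low, at 0.28 to 1.02 CPM in KO and 1.23 to 2.36 CPM in WT for Cdk12. Cdk9, the kinase of transcription elongation, had -0.37 ± 0.13 (edgeR adjusted p = 0.141).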

How the data were processed

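RNA of sorted splenic Ly6Chigh monocytes was turned into cDNA by oligo-dT priming with template switching (SMART-Seq v4), according to the labels' protocols. Raw counts per gene were deposited by the authors in 1 table for all 8 libraries. The submitters' processing notes name HISAT2 2.0.5, featureCounts 1.5.0-p3 and the build GRCm38, while the strand setting and annotation are not stated there. With oligo-dT priming and PCR, recovery can vary with transcript length, and reads carry no molecular identifiers, so that counting error understates the error of a level.

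Genotype was taken from the labels. Counts were tested with edgeR 4.0.16 in R 4.3.3 (filterByExpr, TMM, robust quasi-likelihood, no covariate, Benjamini-Hochberg at 0.05), with a common biological coefficient of variation of 22.4%. The SE was derived from the F statistic. DESeq2 1.42.0, limma 3.58.1 (voom), other filters and normalization, covariates, libraries left out and offsets for length and GC content (mgcv 1.9.3) were alternatives. Log2 CPM for correlations used a prior count of 2. Exon lengths and overlaps came from GENCODE M21 on GRCm38, where 97.7% of tested genes had a length.

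The 10 members and all gene lists were chosen with earlier results of these data known. Named were all members, the 3 genes with the smallest p and any called gene of each list, and the 5 genes most like Cdk1 and Ccnd3. Ccnd2 was not tested, so that no genes most like it are given. Cdk4, Cdk6, Cdkn1a, Cdkn2d, Cdc20, Ube2c, Fbxo5, Mki67, the overlapping genes and the pseudogenes were named after their values were seen. Of 134 list entries 1 had no match in the table.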

Additional observations from a re-analysis of the deposited data

Results flagged for a closer look

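Among 86 groups of 4 values, 7 held a library that stood apart from its group by Dixon's criterion, and chance alone gives about 1 in 20. In 6 of them the library was WT 2, on the high side: Ccne2 (2.50 CPM), Ccna2 (15.6 CPM), Ccnb1 (37.4 CPM), Ccnf (3.78 CPM), Aurka (15.1 CPM) and Asf1b (32.7 CPM). These genes share 1 profile over the libraries, so that they are not 6 separate observations. The remaining value was Ccnd2 in KO 1 (0.240 CPM), which rests on 4 counts.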

How the results depend on the processing

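Of the 8 tested members, 7 kept the sign of their difference in all 19 alternatives. Of 24 pathway genes 20 did in those that gave a value (all 19 for 21 of them; Ccnk and Cdk13 lack the stricter filter, Lin54 the offsets), as did 5 of 9 genes most like a member and 6 of 10 others named. Mki67 is not in these counts. Signs turned with the length and GC offsets in Ccnd3 (0.080), Mnat1 (-0.0098), Ccnh (-0.18), Cdk7 (-0.13), Fem1a (0.26), H6pd (0.0077), Tssk6 (0.059), Dvl2 (0.16), Cdk6 (0.40) and Bysl (0.089). Within the 1600 series they turned in Cdk6 (0.77), Cdkn2d (0.21) and Cdkn1a (-0.034), within the 1700 series in Bysl (0.043), and without KO 1 and KO 2 in Cdkn2d (0.16) and Cdkn1a (-0.15). With 1 library left out the values ran from -0.25 to 0.11 for Cdkn1b, -0.31 to 0.16 for Cdk6, -0.36 to 0.30 for Cdkn2d, -0.12 to 0.31 for Cdkn1a and -0.089 to 0.014 for Bysl. Members passing numbered 0 in the main setting, 6 with DESeq2, 2 with the number series as covariate, 1 within the 1600 series, 1 within the 1700 series and 0 to 2 with 1 library left out. Genes passing numbered 119 in the main setting, 742 without the low-count filter, 784 with DESeq2, 0 with limma-voom, 251 with the series covariate, 7 without KO 1 and KO 2, 1 with the offsets and 0 to 483 with 1 library left out (0 without WT 1, WT 3, KO 2 or KO 3, 3 without WT 4, 65 without KO 1, 209 without KO 4 and 483 without WT 2). The interaction was called for 88 genes, and 645 without the filter. With mean transcript length, 18 of 20 levels per kilobase moved by over 1 SD, since the divisor changes. The cause of the other shifts was not tested.

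Over all tested genes, libraries with the same title number did not deviate together (r of -0.049 to 0.093 over 4 pairs). Such a correlation over all genes cannot settle whether the numbers pair the libraries. With the replicate block, 244 genes and 6 members passed. In each of these 6 members KO 2 and WT 2 were the highest libraries of their genotype. The SE with the block was 0.28 for Cdk1 and 0.30 for Ccnb2, against 0.77 and 0.87 in the main setting.

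The precision of Ccnd1 and Ccnd2 is limited by their counts of 0 to 6 per library. For the other members the spread between libraries of a genotype limits it.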
